A study of Caenorhabditis elegans with 2 samples.

Results

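The body-shape collagen genes of C. elegans were read here as sites of RNA polymerase II in L2 larvae. The set comprises 10 of 19973 nuclear protein-coding genes, sqt-1, sqt-2, sqt-3, dpy-4, dpy-5, dpy-7, dpy-8, dpy-10, dpy-13 and rol-6. They were picked by name with earlier results of these data known, and each name matched 1 gene of the WBcel235 annotation. The data are chromatin immunoprecipitation followed by sequencing (ChIP-seq) with an antibody to AMA-1, the catalytic subunit of RNA polymerase II. Both libraries came from whole L2 larvae of the wild-type strain N2, for which the labels name no treatment. The labels give them as biological replicates 1 and 2 of a single group, of unknown age within the stage. No other stage, genotype or treatment was compared, so every result below is a description with no test between conditions. Whole larvae mix all tissues, and a weak signal in many nuclei cannot be told apart from a strong signal in few.

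Cuticle collagens are short proteins with Gly-X-Y repeats that the epidermis secretes and crosslinks into a new cuticle at every molt. Mutations in the genes described here change the outline of the whole animal: Dpy worms are short and fat, Sqt worms are squat, and Rol worms are twisted and roll as they move. The collagen genes are transcribed in waves within each larval stage, and the collagens of the annular furrows, which include DPY-7, DPY-8 and DPY-10, belong to an early wave.

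Each gene was examined from 500 bp upstream of its annotated 5′ end to 500 bp past its 3′ end, on the plus or minus strand as annotated. The authors' value per peak (column 7, here the signal) ranks peaks within a list, and none of the sources used here states its scale. A summit is the position that the peak list gives as the peak's highest point. The optimal list holds the 1861 peaks kept after comparing the replicates, and they are exactly the top of the pooled list, with signals of 47.4 and above. Of these peaks, 98.8% overlapped some peak of replicate 1 and 95.7% some peak of replicate 2. An optimal peak therefore need not be found in both replicates. The replicate and pooled lists hold 30000 peaks each, background included, and the 1861 peaks of highest signal in a replicate are called strong here, which means at least 35.9 in replicate 1 and 19.8 in replicate 2. Read depth is unknown. Signals of replicates 1 and 2 come from separate peak calls and are set side by side only, together with their ranks.

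Sequence upstream of the annotated 5′ ends of 5 members is shown beside the summits described below, none of which, among the optimal or strong ones, lay in it. Where the promoters lie was not measured. Each line gives the 200 bases before the annotated 5′ end on ce11 (RefSeq assembly WBcel235), 5′ to 3′ on the gene's strand. Capitals mark every match, on either strand, to TATAAA (the TATA box), GATAAG (a core bound by GATA factors such as the epidermal ELT-1 and ELT-3), TTTCAG (a splice acceptor), AGGTCA (a nuclear receptor site) or GAGAGA. The first 4 genes had optimal summits and rol-6 had none.
dpy-13, chrIV:4235414-4235613, plus strand: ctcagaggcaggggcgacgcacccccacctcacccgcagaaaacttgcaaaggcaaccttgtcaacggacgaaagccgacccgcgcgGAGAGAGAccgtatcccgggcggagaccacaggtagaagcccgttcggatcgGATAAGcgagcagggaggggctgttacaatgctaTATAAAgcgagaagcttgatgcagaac
sqt-3, chrV:12352545-12352744, plus strand: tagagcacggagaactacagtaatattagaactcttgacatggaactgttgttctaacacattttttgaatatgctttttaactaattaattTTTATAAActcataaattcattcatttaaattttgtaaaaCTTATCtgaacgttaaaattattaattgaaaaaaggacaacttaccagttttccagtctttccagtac
dpy-4, chrIV:14986785-14986984, minus strand: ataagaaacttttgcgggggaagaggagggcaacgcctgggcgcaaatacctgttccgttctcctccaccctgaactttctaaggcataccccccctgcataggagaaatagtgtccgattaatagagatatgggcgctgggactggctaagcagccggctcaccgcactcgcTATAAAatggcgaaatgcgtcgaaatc
sqt-1, chrII:11337838-11338037, minus strand: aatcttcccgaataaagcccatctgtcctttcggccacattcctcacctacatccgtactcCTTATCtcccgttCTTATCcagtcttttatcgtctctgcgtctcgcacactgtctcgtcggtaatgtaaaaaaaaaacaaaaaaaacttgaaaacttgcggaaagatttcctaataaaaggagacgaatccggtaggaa
rol-6, chrII:8732850-8733049, plus strand: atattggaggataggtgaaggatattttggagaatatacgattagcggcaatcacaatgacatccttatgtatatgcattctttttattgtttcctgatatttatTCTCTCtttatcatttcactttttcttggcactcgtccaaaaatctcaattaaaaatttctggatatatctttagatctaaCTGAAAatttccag

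In dpy-13 and in dpy-4 the TATAAA match spanned the bases 27 to 22 before the annotated 5′ end. TATAAA lay within 200 bases upstream of 7 of the 10 members, 30.4% of all protein-coding genes and 60.9% of the 156 numbered col collagen genes. GATAAG also lay upstream of 7 members, namely sqt-1, sqt-2, sqt-3, dpy-5, dpy-8, dpy-10 and dpy-13, against 12.6% of all genes and 16.0% of the col genes. TTTCAG was found on either strand at 4 members (36.8% of all genes), GAGAGA at 2 (16.3%) and AGGTCA at 1, dpy-8 (5.93%). The TTTCAG match of rol-6, printed as CTGAAA, was on the opposite strand and is no acceptor for rol-6. On the gene's own strand TTTCAG began 161 bases before the 5′ end of sqt-2, 9 before that of dpy-5 and 6 before that of dpy-10. In sqt-3 the TATAAA match overlapped its own reverse complement, and in dpy-13 a pair of GAGAGA matches overlapped. These are matches of letters, and whether a factor binds them was not measured.

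AMA-1 had an optimal summit at most of these genes, and strong summits at them were found almost only in replicate 2. An optimal summit was present at 7 of the 10 members, sqt-1, sqt-2, sqt-3, dpy-4, dpy-5, dpy-8 and dpy-13, while it was present at 7.60% of all protein-coding genes and at 14 of 156 numbered col genes (8.97%). Among the 7391 genes no shorter than dpy-5 (855 bp) and no longer than dpy-10 (2079 bp), 6.25% had such a summit. In replicate 2 alone a strong summit was present at 8 members, with rol-6 added, against 6.44% of all genes, 4.63% of genes in that range of lengths and 8.33% of the col genes. In replicate 1 alone it was present at 1 member, sqt-2, against 7.90% of all genes and 7.69% of the col genes. The members' share was thus near that of all genes in replicate 1 and far from it in replicate 2.

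**Figure D1:**
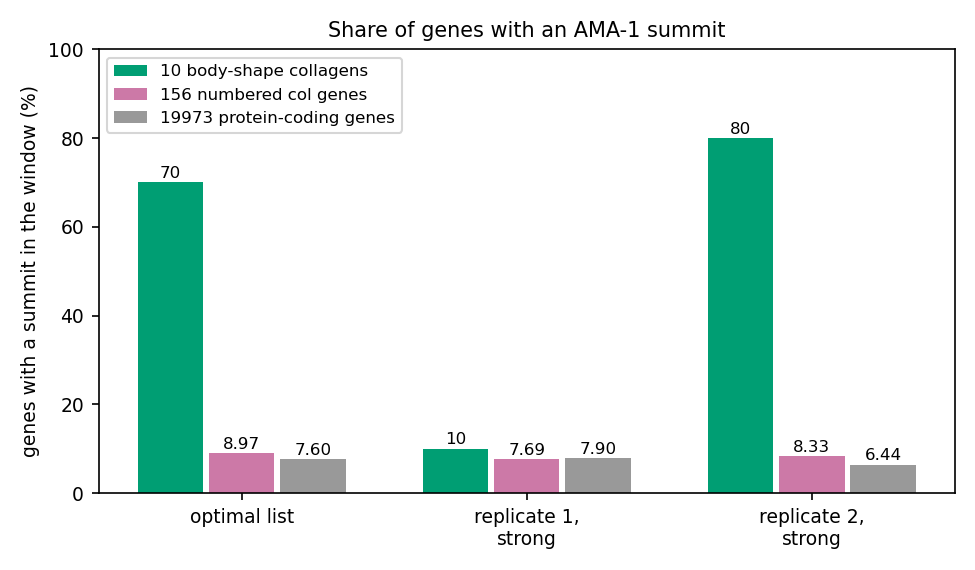
Percent of genes with a summit between 500 bp upstream and 500 bp past the 3′ end, for the 10 body-shape collagens, the 156 numbered col genes and all 19973 protein-coding genes, in the optimal list and among the strong peaks of each replicate. The body-shape collagens stand at 7, 1 and 8 of 10 in the 3 lists, and the col genes between 7.69% and 8.97%.

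The whole lists gave the same order of replicates. Any pooled summit was found at all 10 members, against 44.2% of all genes. Any replicate 2 summit was found at 10 members and any replicate 1 summit at 8, against 44.0% and 45.1% of all genes. The highest signal per gene was ranked among all protein-coding genes, those with no summit being lowest, and is given as a percentile. The members' median percentile was 96.8 in the pooled list (59.9 to 98.9), 99.4 in replicate 2 (76.6 to 99.8) and 66.0 in replicate 1 (27.5, which stands for no summit, to 95.9). The percentile was higher in replicate 2 than in replicate 1 at 10 of 10 members, while this held for 50.1% of the 10741 genes with a summit in either replicate and for 40 of 70 such col genes.

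The same was seen peak by peak. The members held 15 optimal summits, and all 15 peaks were overlapped by a strong peak of replicate 2, against 56.0% of all optimal peaks. A strong peak of replicate 1 overlapped 1 of the 15, against 81.5% of all optimal peaks. With the whole list of replicate 1 the count was 9 of 15 (98.8% of all optimal peaks), and with that of replicate 2 it was 15 of 15 (95.7%).

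**Figure D2:**
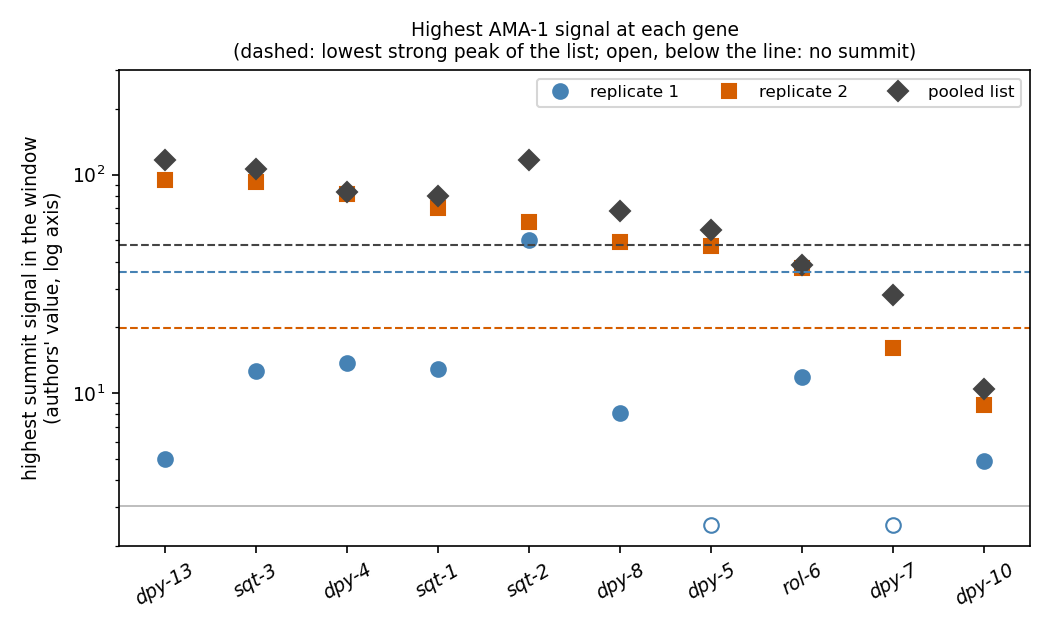
Highest summit signal in the window of each member (log axis) in replicate 1 (circles), replicate 2 (squares) and the pooled list (diamonds), ordered by replicate 2. Dashed lines give the lowest strong peak of each list, at 35.9, 19.8 and 47.4, and open circles at the bottom stand for genes with no replicate 1 summit. Squares lie above their line at 8 members and circles above theirs at sqt-2 only.

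The 4 members with the highest signal in replicate 2 were dpy-13, sqt-3, dpy-4 and sqt-1. dpy-13 encodes a collagen whose loss gives dumpy worms and lies on chromosome IV (4235614 to 4236710, plus strand). Its highest signal was 94.7 in replicate 2, rank 33 of 30000, 5.0 in replicate 1, rank 29320, and 116.0 in the pooled list. The replicate 2 signal came from a summit 219 bp after the 5′ end in a coding exon, followed by strong summits at 934 bp (29.3) and 257 bp past the 3′ end (53.1). The replicate 1 summit lay 168 bp past the 3′ end. zipt-2.2, a zinc transporter family gene of the opposite strand, starts 248 bp from the 5′ end of dpy-13, so the pair is divergent. The gene for the immunoprecipitated protein, ama-1, starts 11.4 kb away on the same chromosome.

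sqt-3, also known as col-1, is required for embryos to survive and lies on chromosome V (12352745 to 12354320, plus strand). Its highest signal was 92.3 in replicate 2 (rank 37), 12.6 in replicate 1 (rank 11091) and 106.3 in the pooled list. In both replicates that summit lay 338 bp past the 3′ end. Replicate 2 held 3 more strong summits inside the gene, 349 bp (58.5), 593 bp (31.9) and 852 bp (23.2) after the 5′ end, all in coding exons. Replicate 1 held weaker summits at 476 bp (9.9) and 51 bp past the 3′ end (5.8).

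dpy-4, a further dumpy collagen gene on chromosome IV (14985543 to 14986784, minus strand), lies inside the longer gene atln-2 of the opposite strand. It reached 81.2 in replicate 2 (rank 54), 13.7 in replicate 1 (rank 9901) and 82.9 in the pooled list. The strong replicate 2 summits lay 276 bp after the 5′ end in an intron (48.8) and 298 bp past the 3′ end (81.2). The assay does not record strand, so AMA-1 on dpy-4 and on atln-2 cannot be told apart there.

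sqt-1 on chromosome II (11336693 to 11337837, minus strand) encodes a collagen in which different mutations give squat, dumpy or rolling worms. The highest signal of sqt-1 was 70.0 in replicate 2 (rank 81), 12.9 in replicate 1 (rank 10845) and 79.8 in the pooled list. Strong replicate 2 summits lay 153 bp (70.0) and 920 bp (42.2) after the 5′ end, both in coding exons, and 346 bp past the 3′ end (57.6). No other annotated gene lay within 500 bp of the optimal summits of sqt-1, at 147 bp after the 5′ end and 346 bp past the 3′ end.

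sqt-2, on chromosome II (23325 to 24458, plus strand), was the only member with a strong summit in both replicates. Its highest signal was 60.9 in replicate 2 (rank 105), 50.4 in replicate 1 (rank 891) and 116.6 in the pooled list, the highest pooled value of the set. The replicate 1 summit lay 193 bp past the 3′ end, which is 15 bp upstream of the next gene, enee-1, and replicate 2 had a summit of 60.0 at 191 bp. The pooled value of 116.6 also came from a summit at 191 bp past the 3′ end. The highest pooled summit inside sqt-2 was 73.7, 502 bp after the 5′ end, below the highest pooled values of dpy-13, sqt-3, dpy-4 and sqt-1. Inside sqt-2 replicate 2 had strong summits at 53 bp (42.1) and 504 bp (60.9), where replicate 1 had none. Where each summit was given to 1 gene only, the shared summit went to enee-1, and no member then had a strong summit in replicate 1. The protein-coding genes nearest to sqt-2 by the percentiles of both replicates were enee-1 (0.03 percentile points away), ogt-1 (0.13) and ahcy-1 (0.29), a likeness over 2 lists only. The window of enee-1 holds the same replicate 1 summit, so the likeness in replicate 1 follows from that. In replicate 2 the highest summit of sqt-2 (60.9) lay inside sqt-2 and outside the window of enee-1.

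dpy-8 and dpy-5 had lower signals in the optimal list. dpy-8 encodes a furrow collagen and lies on chromosome X (5148804 to 5150476, minus strand). It reached 48.9 in replicate 2 (rank 177), 8.1 in replicate 1 (rank 19094) and 67.8 in the pooled list. Its strong replicate 2 summits lay 166 bp (39.4) after the 5′ end in a coding exon and 1226 bp (48.9) after it in an intron, and its 3′ end overlaps C31H2.14 of the opposite strand. dpy-5, annotated with a single exon of 855 bp on chromosome I (5432197 to 5433051, minus strand), reached 46.9 in replicate 2 (rank 198) and 55.6 in the pooled list, and had no replicate 1 summit in the window. Its strong replicate 2 summits lay 164 bp (46.9) and 398 bp (41.8) after the 5′ end and 139 bp past the 3′ end (29.9).

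rol-6, dpy-7 and dpy-10 had no optimal summit. rol-6, whose dominant rolling allele is a common marker of transgenic worms, lies on chromosome II (8733050 to 8734239, plus strand). At its highest, the signal of rol-6 was 37.4 in replicate 2 (rank 365), strong there, 11.8 in replicate 1 (rank 12205) and 38.7 in the pooled list (rank 2824). The replicate 2 summits of rol-6 lay 306 bp after the 5′ end (37.4) and 123 bp past the 3′ end (19.9), the second of them just inside the strong peaks of that replicate. Among the members' pooled summits, the lowest inside the optimal list was at dpy-13 (49.4, rank 1727) and the highest outside it at sqt-3 (43.2, rank 2235).

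dpy-7 encodes a furrow collagen and lies on chromosome X (7536467 to 7537792, minus strand), and its 5′ end is 16 bp from the 3′ end of glb-16. Its highest signal was 16.1 in replicate 2 (rank 3061) and 28.2 in the pooled list (rank 5304), with no replicate 1 summit. dpy-10, another furrow collagen and a common marker in genome editing, lies on chromosome II (6710149 to 6712227, minus strand) and overlaps the annotated gene T14B4.19 of the same strand. It had the lowest values of the set, 8.8 in replicate 2 (rank 9905), 4.9 in replicate 1 (rank 29894) and 10.4 in the pooled list (rank 23110). In replicate 2, the order of the members by highest signal was thus dpy-13, sqt-3, dpy-4, sqt-1, sqt-2, dpy-8, dpy-5, rol-6, dpy-7 and dpy-10. With a single library per list, no spread is available to say which neighbours in this order differ.

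The furrow collagens dpy-7 and dpy-10 had the lowest replicate 2 values of the set, while dpy-8 stood above dpy-5 and rol-6. The furrow grouping was made after the values were seen. The furrow members dpy-7, dpy-8 and dpy-10 had replicate 2 percentiles of 90.2, 99.2 and 76.6, and the 7 members outside the furrow group had a median of 99.6. Of the 6 furrow collagens, which add dpy-2, dpy-3 and dpy-9, 1 had an optimal summit (dpy-8) and 2 a strong one in replicate 2 (dpy-8 and dpy-3). The shares of all genes were 7.60% and 6.44%. Outside the furrow group 6 of 7 members had an optimal summit and 7 of 7 a strong one in replicate 2. In dpy-2, dpy-3 and dpy-9 the highest replicate 2 signal was 10.8, 23.7 and 9.6, and the highest replicate 1 signal was 9.5, none and 15.1.

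AMA-1 summits lay inside the members and past their 3′ ends, and none of the optimal or strong summits lay upstream of an annotated 5′ end. Over all 2147 pairs of a protein-coding gene and an optimal summit in its window, 31.1% of summits were upstream of the 5′ end, 15.4% in coding exons, 9.27% in untranslated exons, 18.6% in introns and 25.7% past the 3′ end. Over the 2101 such pairs of strong replicate 2 summits these shares were 16.8%, 24.9%, 8.61%, 23.1% and 26.5%. Where a worm message is trans-spliced, transcription can begin before the start that the annotation gives. Of the 15 optimal summits, 8 were in coding exons, 2 in introns and 5 past the 3′ end. Of the 23 strong summits of replicate 2, 13 were in coding exons, 2 in introns and 8 past the 3′ end. The 8 optimal summits in the first 500 bp of a gene lay 55 to 452 bp after the 5′ end, with a median of 189 bp. The 5 past the 3′ end lay 191 to 346 bp beyond it, with a median of 300 bp, and those of dpy-13, dpy-4, sqt-3 and sqt-1 were at 283, 300, 330 and 346 bp. Peak intervals in the optimal list were mostly 370 bp wide and the members are 855 to 2079 bp long, so neighbouring summits in a short gene are not far apart.

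**Figure D3:**
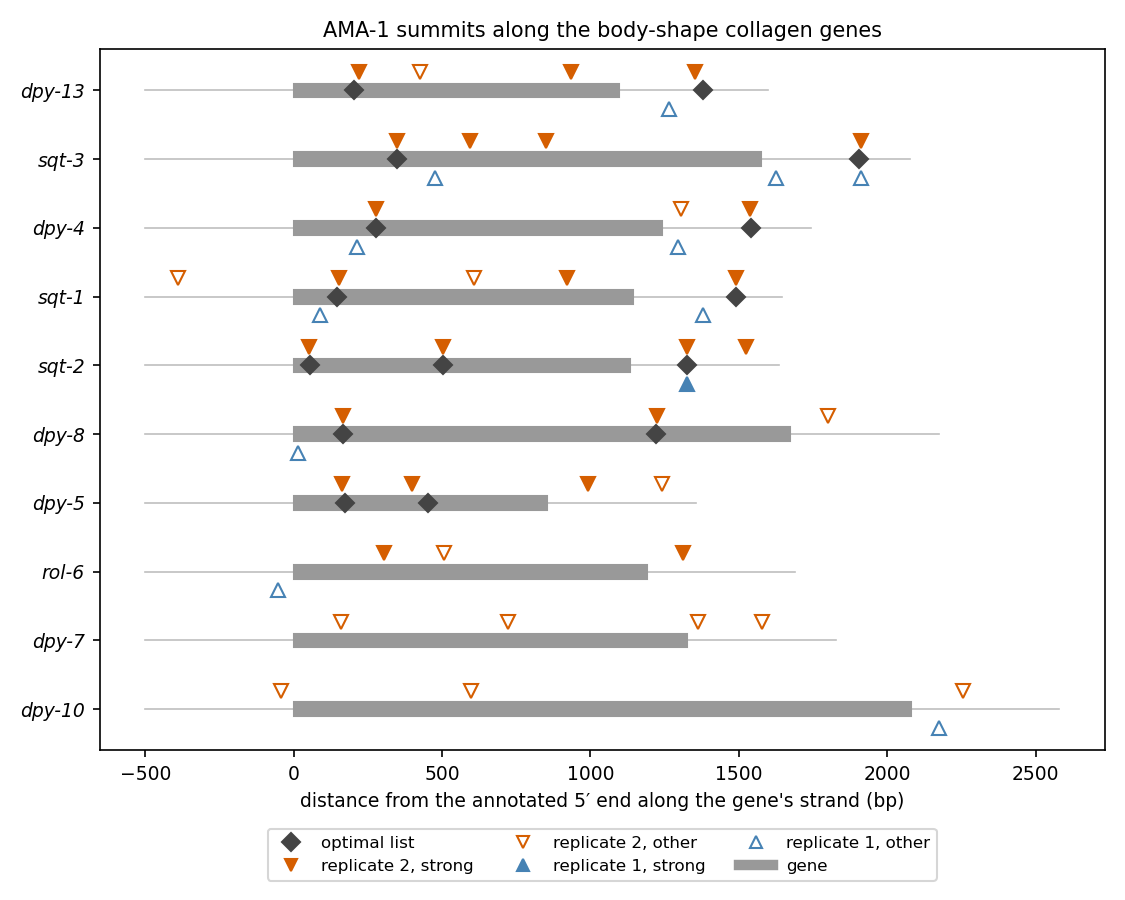
AMA-1 summits along each member, by distance in bp from the annotated 5′ end along the gene's strand, with grey boxes for genes and thin lines for the 500 bp flanks. Optimal summits are diamonds on the gene, replicate 2 summits lie above and replicate 1 summits below, filled where strong. Filled replicate 2 marks recur early in the gene and past its 3′ end at 7 members, and sqt-2 has the only filled replicate 1 mark.

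An optimal summit in the first 500 bp together with another past the 3′ end was found at 5 members, sqt-1, sqt-2, sqt-3, dpy-4 and dpy-13, a pattern chosen after the summits were seen. It was found at 0.506% of all genes, at 6.66% of the 1517 genes with any optimal summit, and at 13.0% of those with a length in the members' range. In replicate 2 alone, 7 members had it (dpy-5 and rol-6 added), against 0.481% of all genes, and in replicate 1 none of the 10 did. dpy-5 and rol-6 are annotated with 0 bases before the coding part, and with 3 and 45 bases after it. Distances from their annotated ends may therefore differ from distances to the ends of their transcripts. All 7 members with an optimal summit had at least 2, whereas this held for 1.94% of all genes and 25.6% of the genes with any optimal summit. The count at both ends fell to 3 where each summit was given to 1 gene only, since those past sqt-2 and dpy-4 lie at or in enee-1 and atln-2. It fell to 1 with the upper part of the optimal list (930 peaks), where sqt-3 alone had summits at both ends (ranks 290 and 925).

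Sequence under some of these summits is shown for its position in the coding part of the gene or past its end. Each line gives the summit base, in capitals, with 50 bases on each side on ce11 (RefSeq assembly WBcel235), 5′ to 3′ on the gene's strand. The first 3 are in coding exons of dpy-13, sqt-3 and sqt-1, 205, 349 and 147 bp after the 5′ end.
dpy-13, chrIV:4235769-4235869, plus strand: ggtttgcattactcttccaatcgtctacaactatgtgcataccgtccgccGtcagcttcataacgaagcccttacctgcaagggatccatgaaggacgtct
sqt-3, chrV:12353044-12353144, plus strand: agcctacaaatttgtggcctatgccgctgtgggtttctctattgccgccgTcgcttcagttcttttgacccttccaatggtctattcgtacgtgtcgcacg
sqt-1, chrII:11337640-11337740, minus strand: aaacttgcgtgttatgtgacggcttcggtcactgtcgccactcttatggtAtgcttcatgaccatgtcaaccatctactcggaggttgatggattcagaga

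The next 4 lie past the 3′ ends of dpy-13, sqt-3, dpy-4 and sqt-1, outside their annotated transcripts, and that of dpy-4 lies within atln-2 of the opposite strand.
dpy-13, chrIV:4236943-4237043, plus strand: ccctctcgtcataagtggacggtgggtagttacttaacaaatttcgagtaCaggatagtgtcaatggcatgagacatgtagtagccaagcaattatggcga
sqt-3, chrV:12354600-12354700, plus strand: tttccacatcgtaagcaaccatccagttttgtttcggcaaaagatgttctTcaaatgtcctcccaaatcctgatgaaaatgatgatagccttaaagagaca
dpy-4, chrIV:14985193-14985293, minus strand: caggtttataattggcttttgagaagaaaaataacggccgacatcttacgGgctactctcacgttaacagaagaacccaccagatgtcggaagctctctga
sqt-1, chrII:11336297-11336397, minus strand: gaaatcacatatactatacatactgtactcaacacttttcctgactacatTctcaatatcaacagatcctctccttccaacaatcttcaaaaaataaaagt

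In such 101-base windows the GC content had a median of 47.5% (35.6 to 54.5%) at the 10 optimal summits inside members. It was 44.6% (31.7 to 44.6%) at the 5 past their 3′ ends, beside 40.6% (16.8 to 71.3%) over all 1861 optimal summits. Of the 10 inside members, 8 were in coding exons, against 15.4% of all pairs of a gene and an optimal summit. GC content was not compared between summits of like place. The collagens form a large family, and repeated words in the members' windows were counted. Between 97.4% (sqt-3) and 100% of the 32-base words of each window occurred once in the genome. Over the 45 pairs of members, identity of the coding sequences was 55.7 to 73.8% of the shorter sequence, with a median of 61.6%. The closest pairs were dpy-4 with dpy-13 (73.8%), sqt-3 with dpy-4 (73.0%) and sqt-3 with dpy-13 (72.0%). These are 3 of the 4 members with the highest replicate 2 signal. Whether shared sequence has a part in the signals was not tested.

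Genes related to the members by function were read the same way, from lists of names chosen with earlier results of these data known. Of 12 other matched cuticle collagens with shape, blister or adult roles (bli-1, bli-2, bli-6, col-19, dpy-2, dpy-3, dpy-9, dpy-14, dpy-17, lon-3, rol-1 and rol-8), 1 had an optimal summit and 2 a strong summit in replicate 2, beside 7.60% and 6.44% of all genes. The optimal summit was at rol-8. This collagen gene, whose mutants roll, reached 63.9 in replicate 2, 20.98 in replicate 1 and 86.0 in the pooled list. The list's median percentile was 77.0 in replicate 2 and, as for genes with no summit, 27.5 in replicate 1. col-19, a marker of the adult cuticle, and bli-1, bli-2 and rol-1 had no summit in any list.

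Of 11 genes for the processing of collagens and of the cuticle, 3 had an optimal summit, beside 7.60% of all genes, and all 3 had a strong summit in both replicates. Strong summits were present at 3 of the 11 in replicate 1 and at 5 in replicate 2, beside 7.90% and 6.44% of all genes. dpy-11, which encodes a thioredoxin-like protein of the epidermis, reached 190.6 in replicate 1 and 52.8 in replicate 2. pdi-2, the protein disulfide isomerase subunit of collagen prolyl 4-hydroxylase, reached 80.1 and 28.3. dpy-31, an astacin protease that cleaves the SQT-3 procollagen, reached 43.3 and 21.7. The catalytic prolyl 4-hydroxylase subunit genes phy-2 (30.8 and 30.3) and dpy-18 (5.1 and 26.1) were strong in replicate 2 only. The median percentile of the 11 genes was 82.4 in replicate 1 and 84.1 in replicate 2, whereas that of the body-shape collagens was 66.0 and 99.4.

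**Figure D4:**
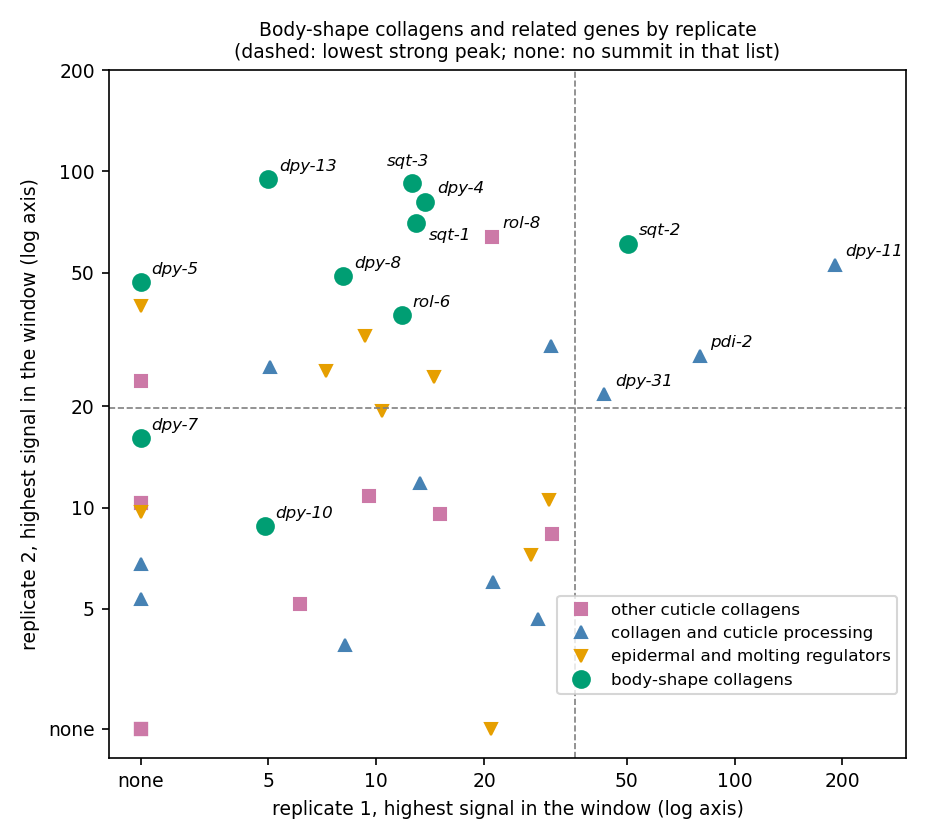
Highest signal in the window in replicate 1 (horizontal) and replicate 2 (vertical), both log axes, for the 10 body-shape collagens and 3 lists of related genes, with names for the members and for other genes with an optimal summit. Dashed lines mark the lowest strong peaks (35.9 and 19.8). Apart from sqt-2, no plotted collagen gene lies to the right of the vertical line, while dpy-11, pdi-2 and dpy-31 lie past both lines.

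Of 9 regulators of the epidermis and of molting, 0 had an optimal summit, beside 7.60% of all genes. A strong summit was found at 4 of them in replicate 2, nhr-23, lin-42, myrf-1 and peb-1, and at 0 in replicate 1, beside 6.44% and 7.90% of all genes. lin-42, a period homologue with a role in molt timing, reached 39.8 in replicate 2 and had no replicate 1 summit. nhr-23, a nuclear receptor needed for molting, reached 24.5 and 14.5. The median percentile of these 9 genes was 93.3 in replicate 2 and 67.1 in replicate 1.

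Median percentiles of tissue markers stood higher in replicate 2 for epidermis and muscle and higher in replicate 1 for neurons, with 1 library on each side. For intestine the order rested only on weak replicate 1 summits at elt-2 and cpr-1. The part of these tissues in the difference at the collagen genes was not tested. Sums of signals come from lists whose scales are not known to be equal, and for muscle they order the replicates the other way. For 11 other epidermal genes the median percentile was 90.2 in replicate 2 and 59.4 in replicate 1. Strong summits were found at 4 and 1 of them, beside 6.44% and 7.90% of all genes, and their signals summed to 255.3 and 195.3. The members' signals summed to 557.3 and 119.2. For 4 muscle genes the medians were 96.0 and 92.9 (sums 147.3 and 193.8), and for 4 neuronal genes 73.8 and 88.3 (sums 34.0 and 131.6). For 4 intestinal genes the medians were 28.0, which stands for no summit, and 44.4 (sums 0 in replicate 2 and 17.5 in replicate 1). Of these genes, ges-1 and vha-6 had no summit in either replicate, and elt-2 (7.6) and cpr-1 (9.97) had one in replicate 1 only. None of them had a strong summit in either replicate, beside 6.44% and 7.90% of all genes. Of 4 germline genes, syp-4 alone had a summit (39.1 and 25.5). col-10, a collagen gene of the epidermal list, was strong in both replicates (49.0 and 127.3).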

How the data were processed

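AMA-1 ChIP-seq was read in 2 biological replicates of whole N2 L2 larvae. The deposited files are peak lists with a signal value per peak, assigned by the authors. Per the file descriptions deposited with the samples, replicate lists came from 1 alignment each with a control-derived file, the pooled list from the 2 alignments together, and the optimal list from all of these by the irreproducible discovery rate. None of the sources used here names the caller, aligner, threshold or depth, and precision per peak is therefore unknown. Lists on ce11 were used with the Ensembl release 115 annotation and the WBcel235 sequence, which are the same build. The ce10 lists were left out.

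Summits (column 10) were counted from 500 bp upstream to 500 bp past each of 19973 genes in Python 3.11.15 with numpy 2.4.6, and the counting was tested on simulated data. Coding sequences were aligned with Biopython 1.88. Alternatives changed the window, the number of peaks, the sharing of summits and the replicate. The members and lists were chosen with earlier results of these data known. All members were named, and genes of the other lists where they had an optimal summit. Others were named after their values were seen.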

Additional observations from a re-analysis of the deposited data

How the results depend on the processing

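The 7 members with an optimal summit stayed between 6 and 8 under every window, peak number and sharing rule tried. The optimal and pooled lists could not be made again without a replicate, so the strong peaks of the other replicate stood in for them. These are the single-replicate values of the report, 1 to 8 members and median percentiles of 66.0 to 99.4, and no further support. The 8 members with a strong summit in replicate 2 stayed between 8 and 9. The 1 member of replicate 1 became 0 with the gene alone, with the 5′ end alone and with each summit given to 1 gene, because its summit lies past the 3′ end of sqt-2 beside enee-1. The median percentile in replicate 1 was 33.1 with the gene alone. The 5 members with optimal summits at both ends, examined after seeing the data, became 1 with 250 bp at each end, 1 with the upper 930 peaks, 3 with each summit given to 1 gene, and 0 to 7 in the single replicates. No paired analysis was possible because the samples form 1 group. Depth is unknown, so a missing summit does not show that AMA-1 was absent.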
